A study of Mus musculus with 8 samples.

Results

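MHC class II molecules are the cell-surface proteins on which macrophages, dendritic cells and B cells show peptides from engulfed material to CD4+ T cells. The set described here holds 9 genes: Ciita, H2-Aa, H2-Ab1, H2-Eb1, Cd74, H2-DMa, H2-DMb1, H2-DMb2 and Ifi30. They were chosen by symbol, as the transactivator of the class together with its peptide-binding chains and the helpers that load them, and are 9 of 54532 rows of the expression table. Each symbol matched 1 row.

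As background, CIITA is the master switch of the class. It binds no DNA itself and is recruited by RFX, CREB and NF-Y proteins sitting on a conserved X box and Y box upstream of class II genes. Interferon-γ switches the Ciita gene on through JAK kinases, IRF1 and USF1. Newly made αβ chains (H2-A and H2-E in the mouse) are held by the invariant chain Cd74, which endosomal proteases cut down to a short peptide. The H2-DM heterodimer then exchanges that peptide for antigen, and Ifi30 (GILT) reduces disulphide bonds so that antigen can unfold.

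RNA was sequenced from bone marrow derived macrophages of the mouse, cells grown from marrow progenitors, in 4 groups of 2 libraries. The groups are PBS at 0 h of IFN-β, PBS at 3 h of IFN-β, spermine at 0 h and spermine at 3 h. Spermine is a polyamine, a small positively charged molecule that cells also make. PBS is the salt buffer named by the sample labels as control, where the text on the series names DMSO. All groups are of the same labelled cell type. The sources used here do not give the strain, sex or age of the mice, the doses of spermine and IFN-β, or how long spermine was present. No group stands for 3 h without IFN-β, so a difference from 0 h to 3 h also holds any effect of time alone. Whether the 2 libraries of a group stem from separate mice or dishes is not in the labels, so every p-value here measures only the spread between libraries, which may be technical.

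Levels are given in FPKM, fragments per kilobase of gene length scaled by library, as deposited. Rebuilt read totals lay between 15723437 and 17744844 per library. All 10 macrophage markers on a list reached 1 FPKM, and their summed level was 11550 to 14259 FPKM. Of the lymphocyte markers, Blk of B cells and Cd3e, Cd3d and Cd3g of T cells were at 0 in every library, and no read of Ifng, the gene of interferon-γ, was counted. In a list of 9 B cell markers 2 reached 1 FPKM, Ighm at 1.94 to 4.29 and Cd22 at 1.02 to 1.83 FPKM. The sum of that list was 4.38 to 4.47 FPKM in PBS at 0 h, 4.23 to 5.0 in PBS at 3 h, 5.52 to 6.41 in spermine at 0 h and 4.0 to 4.46 in spermine at 3 h, and its part in the results was not tested. Summed levels of 10 dendritic cell markers were 3.12 to 3.31 FPKM in PBS at 0 h, 13.2 to 13.5 in PBS at 3 h, 8.82 to 10.0 in spermine at 0 h and 17.8 to 19.8 in spermine at 3 h. In that list 4 of 10 genes (Itgax, Clec10a, Xcr1 and Batf3) reached 1 FPKM, while Flt3 and Zbtb46, which define dendritic cells, stayed at or below 0.0424 FPKM. The group means of H2-Ab1 and of H2-DMa below have the order of this sum. Those of H2-Aa, H2-Eb1 and Cd74 have it except that the middle groups change places. The part of the dendritic cell markers in the values of these 5 genes was not tested. In bulk RNA, fewer cells expressing a gene and less RNA per cell cannot be told apart.

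The X and Y boxes, which CIITA's partners read, were looked for as fixed letters in the members' promoters. RefSeq windows from 250 bases before to 50 bases after a gene's start (GRCm38.p6) were at hand for 6 of the 9 genes, and the stretches around the X and Y boxes of 4 of them are shown because they hold both boxes, or in H2-Aa a CRE and a Y box. The window of Ifi30 holds no X core. The 2 windows of H2-DMa hold none, but they lie at 34122582 to 34122881 and 34125268 to 34125567 on chromosome 17. The measured H2-DMa gene starts at 34135182, so the promoter at that start was not searched. Each stretch is written 5′ to 3′ on the gene's own strand. Capitals mark the core of the X box, spelled AACNGATG or, in H2-Aa, the CRE motif TGACGTCA, and the Y box ATTGG, which NF-Y reads.
H2-Eb1: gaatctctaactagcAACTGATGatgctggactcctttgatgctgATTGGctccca
H2-DMb2: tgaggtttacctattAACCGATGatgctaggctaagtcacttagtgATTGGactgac
H2-DMb1: tgaggtttacctagtAACTGATGatgctag
H2-Aa: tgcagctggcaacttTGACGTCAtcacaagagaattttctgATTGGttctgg

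The H2-Eb1 stretch lies at chr17:34305763-34305818 on the plus strand, upstream of the annotated exons, with 22 bases between the X core and the Y box. H2-DMb2 (chr17:34145113-34145169, plus strand) has 23 bases between them. The measured H2-DMb2 gene starts at 34143307, so this stretch lies inside it and the promoter at that start was not searched. H2-Aa (chr17:34287861-34287912, minus strand) holds no X core in its window and has 18 bases between the CRE motif and the Y box. The H2-DMb1 run (chr17:34153084-34153113, plus strand) overlaps an annotated exon and is shown over its X core only, with a Y box 23 bases further on. The X core letters were chosen after reading these windows, so their presence in the members is a description. A longer spelling of the X box was also searched and picked out other members. It was in the windows of H2-DMb1 and, on the opposite strand, in 1 window of H2-DMa (34122582 to 34122881). The windows of H2-Eb1, H2-DMb2, H2-Aa and Ifi30 did not hold it. That of H2-Ob, outside the set, did, as did 3.94% of 32851 windows. On either strand AACNGATG was found in 2.32% of 32851 windows, TGACGTCA in 1.79% and ATTGG in 37.4%. An X core followed 10 to 30 bases on by a Y box was in 7 windows (0.0213%), those of H2-Eb1, H2-Eb2, H2-DMb1, H2-DMb2, H2-M10.4, BC051142 and Gm35697. H2-Eb2 has this arrangement and was at 0.0996 FPKM or less in every library.

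Ciita mRNA was scarce in these macrophages and moved more than any other gene of the set, with group means from 0.021 to 0.72 FPKM. It lies on chromosome 16 (GRCm38, 10480059 to 10528418, plus strand). In PBS at 0 h it was at 0.247 and 0.146 FPKM (54 and 28 reads), and at 3 h of IFN-β at 0.751 and 0.688 FPKM (100 and 106 reads). With spermine it was at 0.019 and 0.0231 FPKM at 0 h (3 and 4 reads) and at 0.300 and 0.184 FPKM at 3 h (40 and 26 reads). The 2 libraries of spermine at 0 h were the lowest of the 8 and those of PBS at 3 h the highest. PBS at 0 h and spermine at 3 h overlapped, so these data do not order those 2 groups.

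Ciita lies under the filter of the limma fit on log2(FPKM + 1), so it was tested by limma voom on the rebuilt reads at the deposited scale, over 17707 genes with at least 10 reads. IFN-β raised it in PBS by 1.88 ± 0.29 on the log2 scale (SE, n = 2 against 2, adjusted p = 0.000113), in a comparison where 19.7% of all genes tested rose. With spermine it rose by 3.30 ± 0.66 (adjusted p = 0.00159, 14.1% of genes rising). Spermine lowered it at 0 h, where the log2 change was -3.02 ± 0.65 (adjusted p = 0.00272, 16.4% of genes falling). At 3 h the change was -1.60 ± 0.30 (adjusted p = 0.00124, 15.8% of genes falling). The reads alone gave 9.45-fold more Ciita in PBS than in spermine at 0 h, with an exact 95% interval for counting error of 4.39 to 24.3, and 2.99-fold more at 3 h (2.25 to 4.01). IFN-β gave a read ratio of 3.59 (2.77 to 4.70) in PBS and of 11.4 (5.22 to 29.4) with spermine.

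The IFN-β response of Ciita was not shown to differ between spermine and PBS, since the difference of 1.42 ± 0.72 on the log2 scale had an adjusted p of 0.274 in limma voom, in a comparison where 8.36% of genes were called. All 4 of the other calls held when any single library was left out, with the change at 0 h between -3.38 and -2.62, and held at the 2 other library scalings tried. On log2(FPKM + 1) with no filter, where levels under 1 FPKM are pressed together, the change at 0 h was -0.23 with an adjusted p of 0.087, and the call was lost. Dexi, a gene on the opposite strand, overlaps Ciita from 10502531 to 10528418. The strand of the counting is not stated, so reads of the overlap cannot be assigned with certainty. Dexi ran between 1.24 and 5.24 FPKM and did not pass in spermine against PBS at 0 h (log2 change -0.59, adjusted p = 0.101) or at 3 h (0.08, adjusted p = 0.821). With IFN-β it rose in spermine (1.04, adjusted p = 0.0143), as Ciita did, and was at 0.37 in PBS (adjusted p = 0.253). Its part in the Ciita values was not tested.

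**Figure D1:**
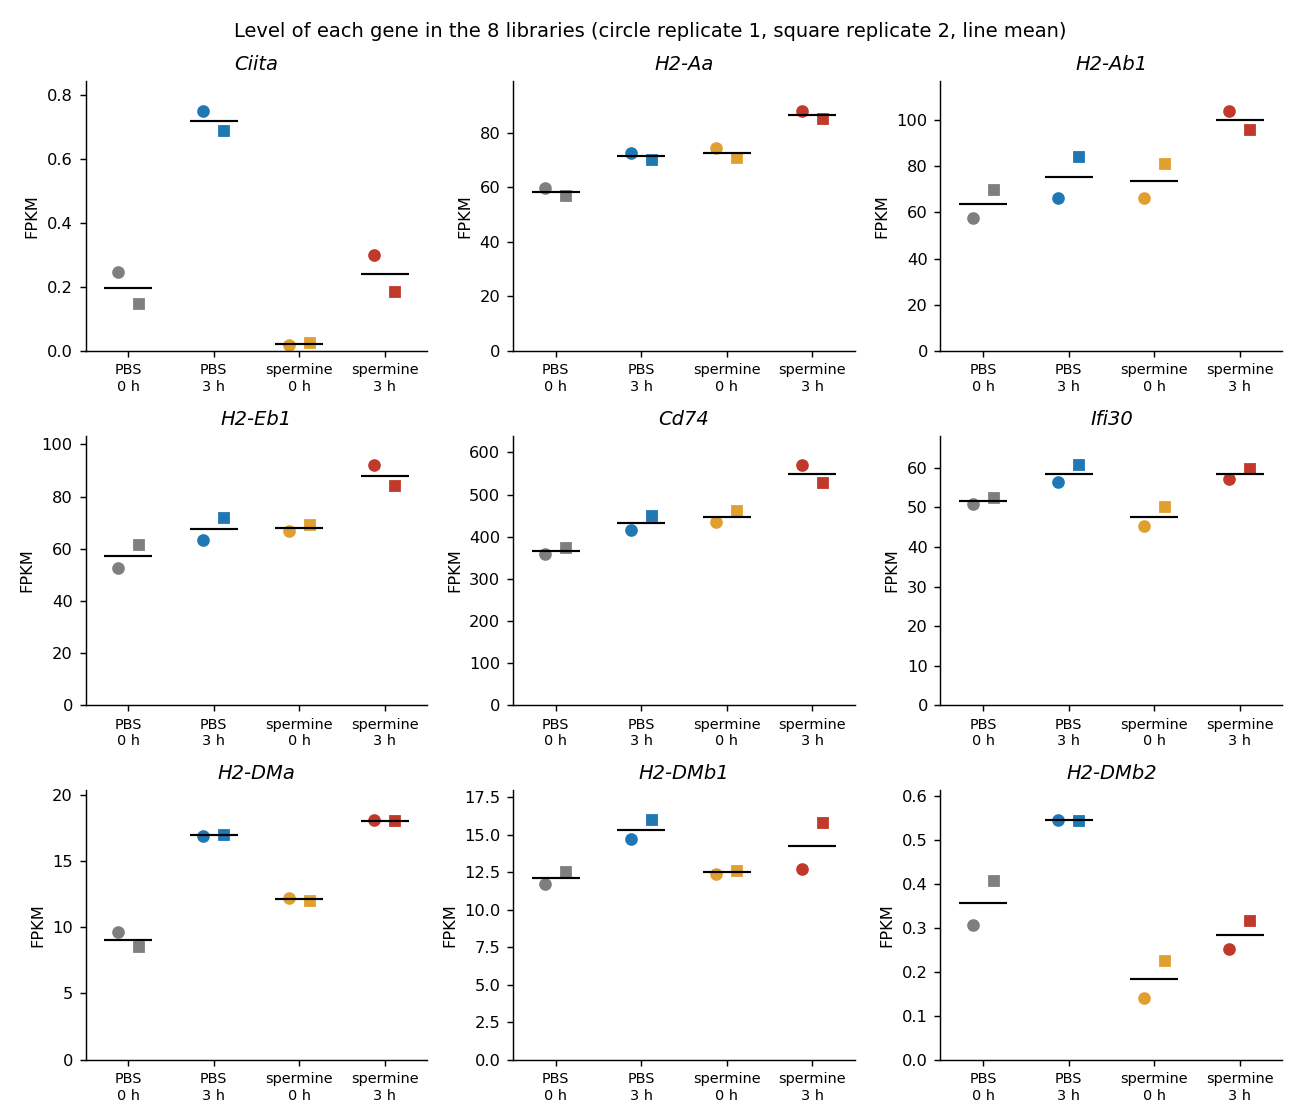
FPKM of the 9 genes in each library by group; circles are replicate 1, squares replicate 2 and lines the mean of 2, with a separate axis from 0 in each panel. Ciita spans 0.019 to 0.751 FPKM and is lowest in spermine at 0 h, while Cd74 stays between 360.1 and 569 FPKM.

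The peptide-binding chains were far more abundant than their transactivator and moved little. H2-Aa, the α chain of the H2-A molecule, was at 59.6 and 56.8 FPKM in PBS at 0 h, 72.5 and 70.2 in PBS at 3 h, 74.4 and 70.7 in spermine at 0 h, and 88.0 and 85.1 in spermine at 3 h. PBS at 0 h was lowest and spermine at 3 h highest without overlap, and the 2 groups between them overlapped. H2-Ab1, the β chain of the same molecule, was at 57.7 and 69.7, 66.4 and 84.0, 66.3 and 80.9, and 104 and 95.9 FPKM in the same order of groups. Its 2 libraries of a group differed by more than those of H2-Aa, and only spermine at 3 h lay clear of the other groups. H2-Eb1, the β chain of the H2-E molecule, was at 52.7 and 61.6, 63.2 and 71.9, 66.9 and 69.0, and 91.9 and 84.2 FPKM. The 3 chains ranked between 472 and 804 among all rows in every library. From the lowest to the highest group mean they spanned 1.49-fold (H2-Aa), 1.57-fold (H2-Ab1) and 1.54-fold (H2-Eb1). Spermine at 3 h had the highest mean of each chain, although its Ciita mean (0.242 FPKM) was below that of PBS at 3 h (0.72 FPKM).

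Cd74, the invariant chain (chromosome 18), was the most abundant gene of the set. It was at 360.1 and 373 FPKM in PBS at 0 h, 415 and 448 in PBS at 3 h, 434 and 460 in spermine at 0 h, and 569 and 528 in spermine at 3 h. The order of its groups was that of H2-Aa, with the same overlap of the middle groups. Within a library Cd74 kept a nearly fixed ratio to the mean of H2-Aa and H2-Ab1, which was 5.82 to 6.17 over all 8 libraries. This ratio stays the same when a library is multiplied by a single factor, as in TPM or TMM scaling. Quantile normalization can change it. The ratio of H2-Aa to H2-Ab1 varied more, from 0.816 to 1.12. Cd74 was set against the mean of these chains, and its ratio to each chain alone was not taken.

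On the deposited scale, the limma fit on log2(FPKM + 1), adjusted by the Benjamini-Hochberg method over 11421 genes, covered 7 of the 9 genes. With IFN-β in PBS 4 of 7 rose and none fell, beside 24.6% of all genes rising: H2-DMa by 0.84, H2-DMb1 by 0.32, H2-Aa by 0.29 and Cd74 by 0.23. With IFN-β and spermine 5 of 7 rose and none fell, beside 19.7% of all genes rising: H2-DMa by 0.54, H2-Eb1 by 0.37, Cd74 and Ifi30 each by 0.29 and H2-Aa by 0.25. Spermine against PBS gave 3 of 7 higher at 0 h, beside 22.0% of all genes (H2-DMa by 0.39, H2-Aa by 0.31 and Cd74 by 0.28). At 3 h it gave 3 of 7 higher, beside 19.9% (H2-Eb1 by 0.38, Cd74 by 0.34 and H2-Aa by 0.28). Median log2 changes over the 7 genes were 0.24, 0.29, 0.25 and 0.28 in these 4 comparisons, beside -0.02, -0.01, 0.01 and 0.00 over all genes. Of these 15 rises only the 3 of H2-DMa passed without any single library. Fewer passed with IFN-β in PBS whichever single library was left out. With IFN-β and spermine fewer passed when any library of the spermine groups was left out. Spermine against PBS gave fewer at 0 h without either library of PBS at 0 h or replicate 2 of spermine at 0 h. At 3 h it gave fewer without replicate 1 of PBS at 3 h or either library of spermine at 3 h. H2-Ab1 passed in none of the 4 comparisons, with log2 changes of 0.23, 0.44, 0.20 and 0.41 (adjusted p = 0.245, 0.0558, 0.322 and 0.0697). In limma voom it passed in 2 of them, with IFN-β and spermine (0.47, adjusted p = 0.0153) and for spermine at 3 h (0.45, adjusted p = 0.0217).

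These rises were small and most of them hang on the scale. The summed FPKM of a library was 248254 to 253576 in PBS at 0 h, 345825 to 351671 in PBS at 3 h, 316283 to 321894 in spermine at 0 h and 400534 to 404833 in spermine at 3 h, so the deposited scale does not hold the total equal. After rescaling to equal totals (TPM), which shifted the median gene by -0.46, -0.33, -0.34 and -0.20 in the 4 comparisons, 8 of the 15 rises took the opposite sign and 1 still passed as a rise, that of H2-DMa with IFN-β in PBS (0.42, adjusted p = 0.00389, beside 14.8% of all genes rising and 55.3% falling on that scale). In that comparison Cd74 then fell (log2 change -0.24, adjusted p = 0.0213) and so did H2-Aa (-0.18, adjusted p = 0.0476). After quantile normalization 3 of the 15 passed as rises, all of H2-DMa, and 3 passed in the opposite direction. With limma voom, which uses TMM scaling, all 15 passed in the same direction. That scaling lies near the deposited one, with the median gene shifted by -0.02, 0.03, -0.01 and 0.03, so it is no separate test of the scale. In limma voom at library totals, IFN-β in PBS gave -0.23 for H2-Aa (adjusted p = 0.0252) and -0.28 for Cd74 (adjusted p = 0.00469). H2-DMb1 was at -0.17 there (adjusted p = 0.282) and H2-DMa at 0.38 (adjusted p = 0.015). As a share of all rebuilt reads the 9 genes together made up 0.111% and 0.116% in PBS at 0 h, 0.0897% and 0.101% in PBS at 3 h, 0.108% and 0.115% in spermine at 0 h, and 0.114% and 0.107% in spermine at 3 h. On that measure PBS at 3 h was lowest and the other 3 groups overlapped.

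**Figure D2:**
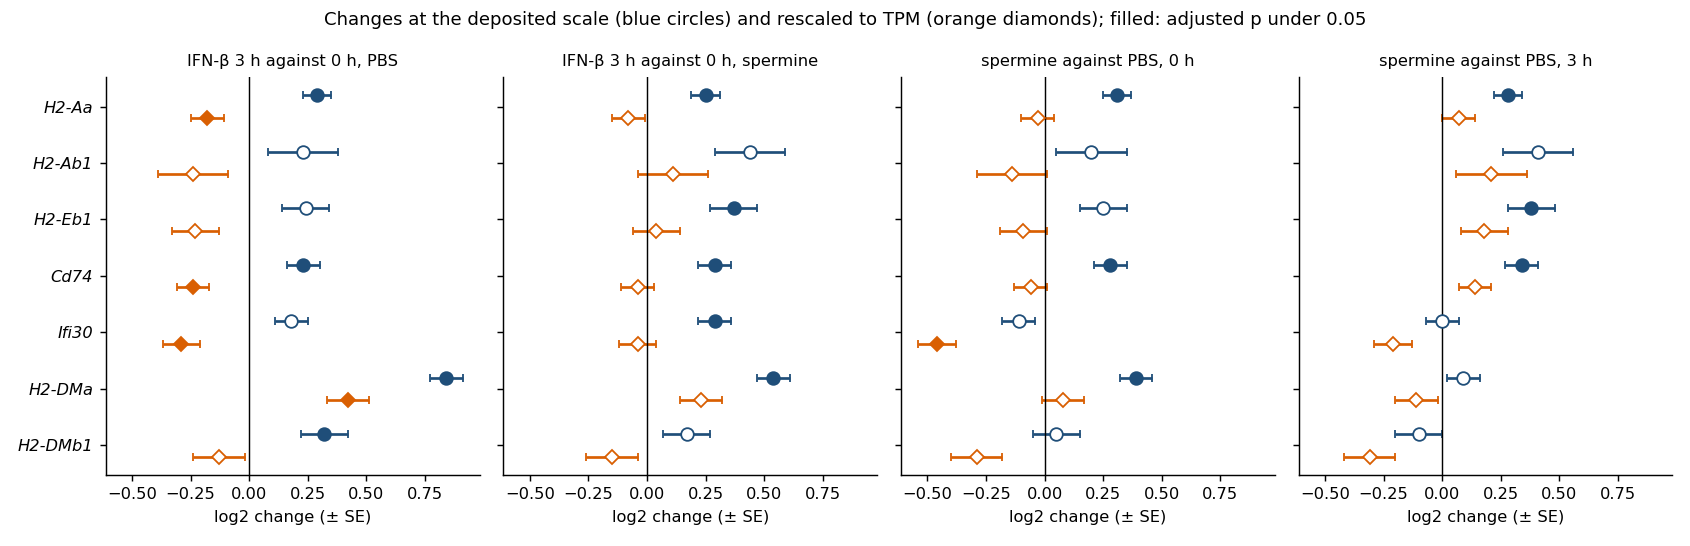
Log2 change ± SE of 7 genes in 4 comparisons from limma (n = 2 against 2), at the deposited scale (blue circles) and rescaled to TPM (orange diamonds); filled symbols have an adjusted p under 0.05. H2-DMa with IFN-β in PBS is filled and to the right of 0 on each scale (0.84 and 0.42), while Cd74 there is at 0.23 and -0.24.

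The H2-DM genes, whose products load peptides, did not move as a pair. H2-DMa, the α chain, was at 9.61 and 8.50 FPKM in PBS at 0 h, 16.9 and 17 in PBS at 3 h, 12.2 and 12 in spermine at 0 h, and 18.1 and 18 in spermine at 3 h. No 2 of its groups overlapped. Its rise with IFN-β in PBS (0.84 ± 0.07, adjusted p = 9.11e-05, limma) passed under each of the 10 other settings tried and without any single library. With spermine the rise was 0.54 ± 0.07 (adjusted p = 0.00126), and on the TPM scale it was 0.23 with an adjusted p of 0.0547. Spermine against PBS gave 0.39 at 0 h (adjusted p = 0.0058, and 0.08 with an adjusted p of 0.499 on the TPM scale) and 0.09 at 3 h (adjusted p = 0.377).

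H2-DMb1, the β chain, was at 11.7 and 12.5, 14.7 and 16.0, 12.4 and 12.6, and 12.7 and 15.8 FPKM in the same order of groups. It passed with IFN-β in PBS only (0.32, adjusted p = 0.0406). That call was lost when any library of PBS or of spermine at 0 h was left out (changes of 0.26 to 0.38), and on the TPM scale the value was -0.13. The ratio of H2-DMa to H2-DMb1, which a single factor per library leaves unchanged, was 0.821 and 0.682 in PBS at 0 h, 1.15 and 1.06 in PBS at 3 h, 0.985 and 0.956 in spermine at 0 h, and 1.42 and 1.14 in spermine at 3 h. It was higher at 3 h than at 0 h in both treatments without overlap. H2-DMb2, the near-identical second β chain gene, gave 4 to 15 reads a library (0.141 to 0.545 FPKM), or 1.13% to 3.58% of the summed H2-DMb1 and H2-DMb2 level. That share was 2.55% and 3.16% in PBS at 0 h, 3.58% and 3.29% in PBS at 3 h, 1.13% and 1.76% in spermine at 0 h, and 1.93% and 1.96% in spermine at 3 h, so both spermine groups lay under both PBS groups. In limma voom H2-DMb2 passed in no comparison, with log2 changes of -0.88 ± 0.55 at 0 h and -0.90 ± 0.51 at 3 h for spermine against PBS (adjusted p = 0.245 and 0.216). The sources used here do not say how reads that fit both copies were handled, so its level is uncertain.

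Ifi30, the thiol reductase (chromosome 8), was at 50.9 and 52.3 FPKM in PBS at 0 h, 56.4 and 60.6 in PBS at 3 h, 45.4 and 50.0 in spermine at 0 h, and 57.1 and 59.7 in spermine at 3 h. It did not follow Cd74 and the chains to a higher mean with spermine. On the deposited scale its change with spermine was -0.11 at 0 h (adjusted p = 0.261) and 0.00 at 3 h (adjusted p = 0.992), and on the TPM scale it fell at 0 h (-0.46, adjusted p = 0.00255). Within a library the ratio of Ifi30 to Cd74 was 0.141, 0.140, 0.136 and 0.135 in the 4 PBS libraries and 0.104, 0.109, 0.1004 and 0.113 in the 4 spermine libraries. The 2 treatments did not overlap in this ratio.

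**Figure D3:**
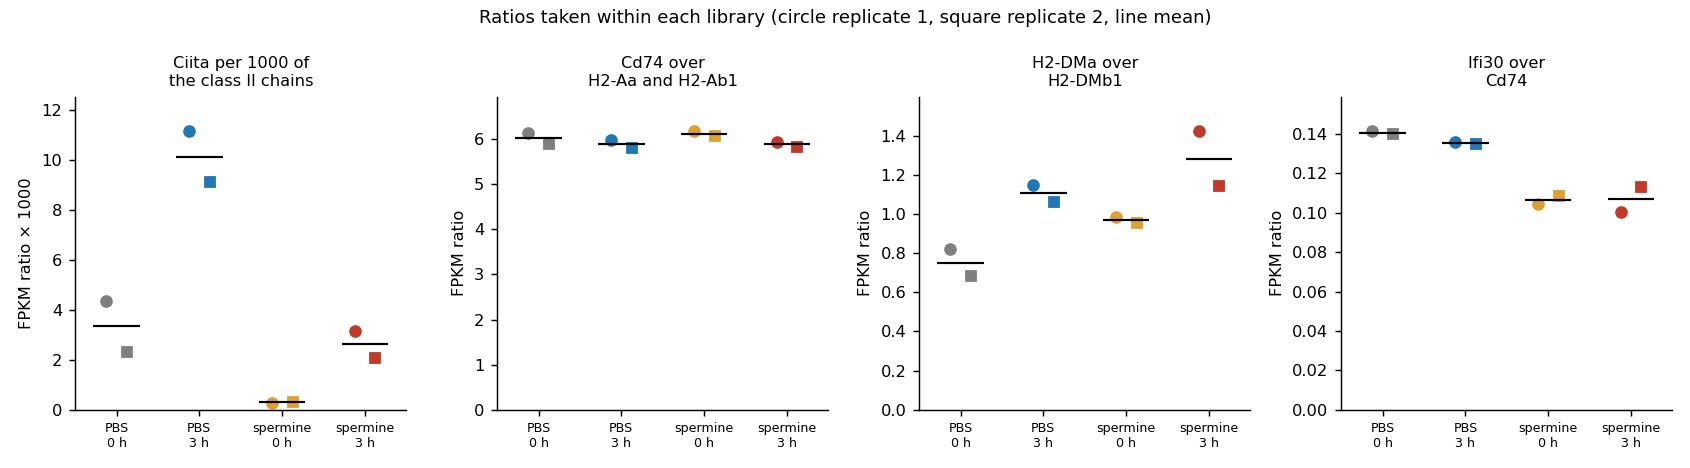
Ratios of FPKM taken within each library, by group, with replicate 1 as circles, replicate 2 as squares and the mean of 2 as a line; every axis starts at 0. Ciita per 1000 of the class II chains runs from 0.275 to 11.2, Cd74 over the chains stays between 5.82 and 6.17, and Ifi30 over Cd74 is lower in all spermine libraries.

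Set against its targets in the same library, Ciita varied over a 40.6-fold range. Per 1000 of the mean of H2-Aa, H2-Ab1 and H2-Eb1 it was 4.36 and 2.32 in PBS at 0 h, 11.2 and 9.13 in PBS at 3 h, 0.275 and 0.314 in spermine at 0 h, and 3.17 and 2.08 in spermine at 3 h. Spermine at 0 h had the lowest ratio in both libraries, PBS at 3 h the highest, and the other 2 groups overlapped.

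None of the 7 genes tested by limma passed in the difference of the IFN-β responses, beside 13.6% of all genes called. At an unadjusted p under 0.05 there was 1, H2-DMa, with a difference of -0.30 ± 0.10 (adjusted p = 0.107), and limma voom gave 0 calls and 0 genes at that unadjusted p. The median difference of the 7 was 0.06, beside -0.02 over all genes.

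The remaining class II chains were hardly present. H2-Ea-ps, listed under the name of a pseudogene of the H2-E α chain, was at 0 in all libraries. H2-Ob, a chain of the DM inhibitor H2-O, ran from 0.0787 to 0.278 FPKM. H2-Oa, its partner, was at 0.233 and 0.227 FPKM in PBS at 0 h, 0.491 and 0.565 in PBS at 3 h, 0.184 and 0.126 in spermine at 0 h, and 0.109 and 0.103 in spermine at 3 h. In limma voom H2-Oa was lower with spermine at 3 h (log2 change -2.07 ± 0.67, adjusted p = 0.0333), beside 15.8% of genes falling. H2-Ob was at 0.04 there (adjusted p = 0.976). Both genes stayed under 1 FPKM in every library, so the H2-Oa call rests on low values.

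The lists of other genes below are read beside the shares of all genes called. In limma at the deposited scale 25.0% of all genes fell with IFN-β in PBS and 22.1% with spermine, and spermine lowered 19.2% at 0 h and 20.6% at 3 h, beside the rising shares given above (24.6%, 19.7%, 22.0% and 19.9%). On the TPM scale 12.0% rose and 44.0% fell with IFN-β and spermine, and spermine raised 10.4% and lowered 41.5% at 0 h and raised 11.7% and lowered 32.2% at 3 h.

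Of 11 tested genes that act upstream of Ciita, 8 rose and 2 fell with IFN-β in PBS, and 6 rose and 2 fell with spermine (limma; on the TPM scale 6 rose and 3 fell, and 6 rose and 2 fell). Spermine against PBS lowered 8 of 11 and raised 1 at 0 h, and lowered 6 and raised 1 at 3 h (on the TPM scale 9 lower and 0 higher, and 7 lower and 1 higher). The median log2 changes were 1.05, 1.34, -0.64 and -0.37. Usf1, which binds the interferon-responsive Ciita promoter, was at 16.6 and 19.9, 32.3 and 47.1, 6.76 and 8.99, and 21.2 and 21.3 FPKM. With spermine it was lower at 0 h (-1.13, adjusted p = 0.0041) and at 3 h (-0.85, adjusted p = 0.0134), and it kept those directions on the TPM scale (-1.53 and -1.07).

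Irf1, the other factor of that promoter, took another course. It was at 6.33 and 5.84 FPKM in PBS at 0 h, 141 and 151 in PBS at 3 h, 2.34 and 2.65 in spermine at 0 h, and 262 and 253 in spermine at 3 h. Its IFN-β response was larger with spermine by 1.83 ± 0.11 (adjusted p = 0.00132), so at 3 h spermine libraries had more Irf1 and less Ciita than PBS libraries. Irf8 and Ifngr1 also passed in the difference of the responses (1.27 and 0.69). With Irf1 these were the 3 of 11 that did, beside 13.6% of all genes called. Ifngr1, a chain of the interferon-γ receptor, fell with IFN-β from 54.1 and 49.5 to 16.5 and 16.5 FPKM in PBS and from 26.6 and 21.1 to 11.9 and 12.6 FPKM with spermine.

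Of 7 tested genes for the X and Y box complex, 1 rose and 5 fell with IFN-β in each treatment, and on the TPM scale 1 rose and 6 fell, beside falls of 25.0% and 22.1% of all genes at the deposited scale and of 55.3% and 44.0% on the TPM scale. The riser was Rfx5, the DNA-binding subunit of RFX, at 1.18 and 1.42 FPKM in PBS at 0 h, 3.32 and 3.19 in PBS at 3 h, 0.802 and 0.750 in spermine at 0 h, and 1.90 and 1.83 in spermine at 3 h. It was lower with spermine at 0 h (-0.37, adjusted p = 0.0187) and at 3 h (-0.57, adjusted p = 0.00342). Its partners Rfxap and Rfxank fell with IFN-β in PBS (-0.94 and -0.54). The NF-Y subunit Nfya was higher with spermine at 0 h (0.61) and at 3 h (0.47), and on the TPM scale those values were 0.28 and 0.28.

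**Figure D4:**
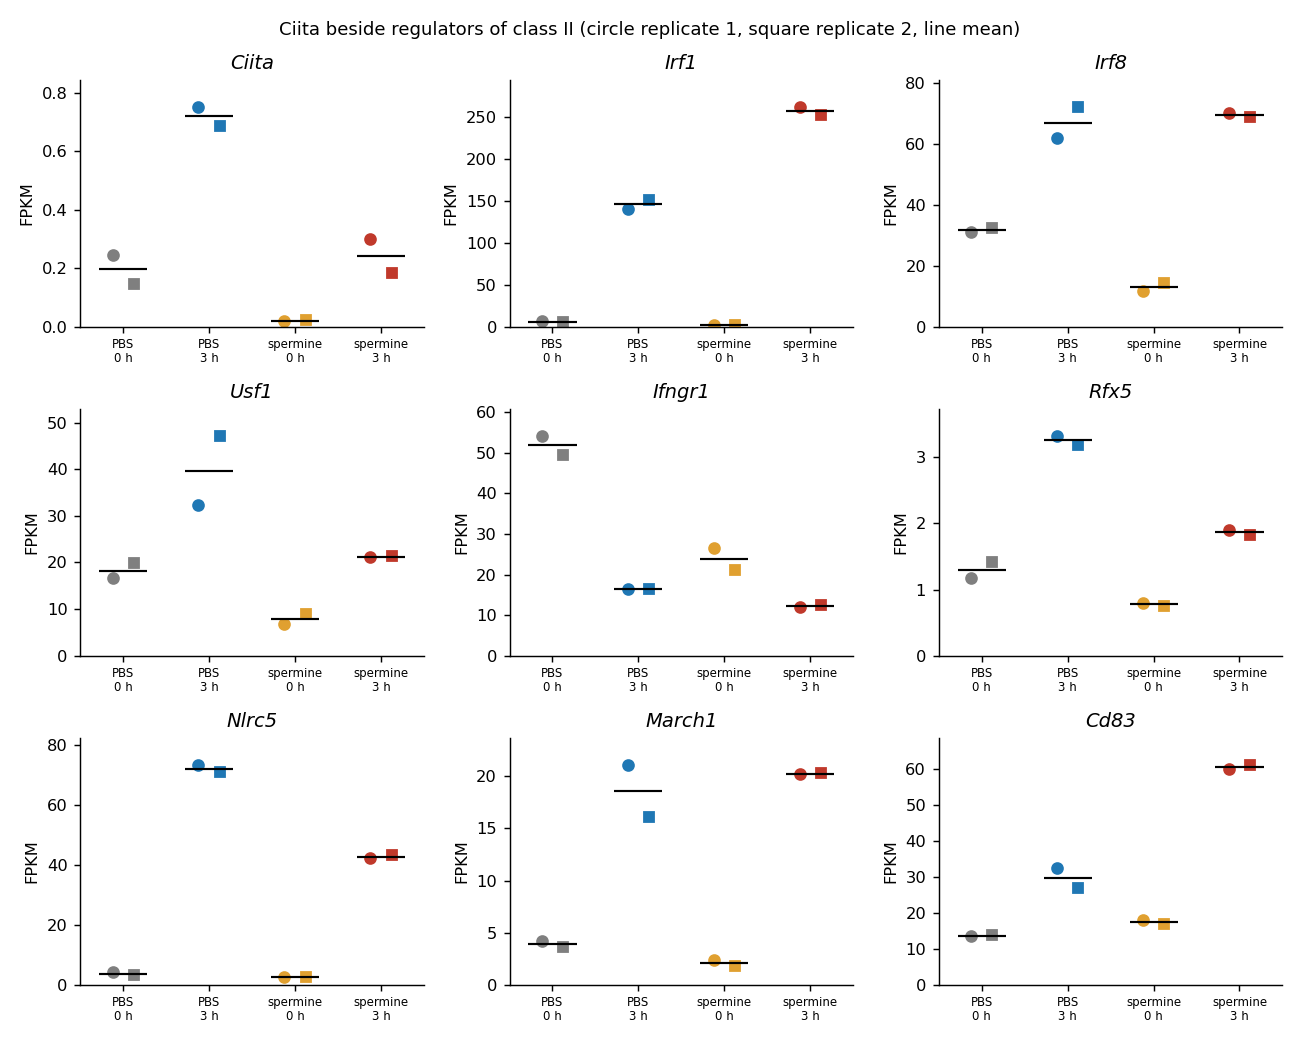
FPKM of Ciita and 8 genes that regulate class II or class I in each library by group; circles are replicate 1, squares replicate 2 and lines the mean of 2. Ciita, Usf1, Rfx5 and Nlrc5 have lower levels in spermine than in PBS at 3 h, and Irf1 and Cd83 have higher ones.

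Among 8 tested repressors and brakes of Ciita, 5 rose and 3 fell with IFN-β in PBS, and 6 rose and 1 fell with spermine (on the TPM scale 4 and 3, and 5 and 1), beside 24.6% and 19.7% of all genes rising and 25.0% and 22.1% falling. Spermine against PBS raised 1 and lowered 3 of the 8 at 0 h, and raised 2 and lowered 3 at 3 h. On the TPM scale these were 1 and 4, and 2 and 5. Beside them, 22.0% and 19.9% of all genes rose and 19.2% and 20.6% fell at the deposited scale. Prdm1, whose product Blimp-1 shuts off Ciita, fell with IFN-β in PBS (-0.70) and rose with spermine (0.42, and 0.12 on the TPM scale). At 3 h spermine libraries had more Prdm1 than PBS libraries (11.1 against 4.33 FPKM as means of 2, log2 change 1.19, adjusted p = 0.000325, limma). Socs1, which brakes JAK signalling, went from 0.159 to 204 FPKM in PBS and from 0.512 to 73.7 with spermine, and the difference of its responses was -1.79 in limma (adjusted p = 0.0197). In limma voom that difference was -2.91 ± 1.10 with an adjusted p of 0.137, and the call was lost. Of 6 tested coactivators that CIITA recruits, 4 rose and 0 fell with IFN-β in PBS (on the TPM scale 2 rose and 2 fell), and 0 rose and 3 fell with spermine against PBS at 3 h, beside 24.6% of all genes rising in the first comparison and 20.6% falling in the last. Kat2b, a histone acetyltransferase, changed by 1.79 with IFN-β in PBS and by -0.74 with spermine at 3 h.

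A list of proteases that cut antigen and the invariant chain had 9 tested genes, with Cst3, a protease inhibitor, among them. Of these 9, Ctsc alone passed as a rise with IFN-β both at the deposited and on the TPM scale. Cst3 is counted below among the rises with spermine (0.45, adjusted p = 0.0275, limma). At the deposited scale, 5 rose and 1 fell with IFN-β in PBS and 6 rose and 0 fell with spermine, whereas on the TPM scale 1 rose and 2 fell in each. Beside these, 24.6% and 19.7% of all genes rose at the deposited scale, and 55.3% and 44.0% fell on the TPM scale. Ctsl, a lysosomal endoprotease, fell with IFN-β in PBS (-0.39, adjusted p = 0.0021, and -0.87 on the TPM scale), and Ctsd, an aspartic protease, was at 0.05 there (adjusted p = 0.669). Ctss, the protease that makes the final cut in the invariant chain, was among the most abundant of them, at 1927 to 3111 FPKM. Ctsc was apart, rising by 2.64 with IFN-β in PBS and by 2.02 with spermine, and lower with spermine by -0.81 at 0 h and -1.43 at 3 h.

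Of 3 tested genes that set how long class II stays at the surface, March1 and Cd83 had larger changes with IFN-β than the chains, and March8, a ubiquitin ligase, was at 0.01 in PBS (adjusted p = 0.923) and fell with spermine (-0.41, adjusted p = 0.00346). March1, the ubiquitin ligase that sends class II for degradation, was at 4.17 and 3.58 FPKM in PBS at 0 h, 21.1 and 16.1 in PBS at 3 h, 2.37 and 1.76 in spermine at 0 h, and 20.2 and 20.3 in spermine at 3 h. Its IFN-β rise was 2.00 in PBS (adjusted p = 3.99e-05) and 2.80 with spermine (adjusted p = 1.13e-05). Cd83, which opposes March1, was at 13.5 and 13.7, 32.6 and 26.8, 18.1 and 17, and 60.2 and 61.2 FPKM in the same order of groups. Its IFN-β response was larger with spermine (difference 0.67, adjusted p = 0.0233), and at 3 h it was higher with spermine by 1.01 (adjusted p = 0.000346, and 0.82 on the TPM scale).

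The class II genes of chromosome 17 stand among genes that answered IFN-β strongly. Between 34092340 and 34316199 the table has 14 protein-coding genes, of which 11 were tested, 5 of them class II genes of the set. In chromosome order with IFN-β in PBS, the log2 changes were 1.90 for Brd2, 0.84 for H2-DMa, 0.32 for H2-DMb1, 2.94 for Psmb9, 3.85 for Tap1, 2.52 for Psmb8, 2.27 for Tap2, 2.02 for Gm15821, 0.23 for H2-Ab1, 0.29 for H2-Aa and 0.24 for H2-Eb1. Gm15821 passed the filter on low values only through PBS at 3 h (4.32 and 2.71 FPKM, and at most 0.708 elsewhere), so its change there is no support. The 5 others ran from 1.90 to 3.85 in PBS and from 1.18 to 4.96 with spermine, each above every class II gene (0.23 to 0.84 and 0.17 to 0.54). On the TPM scale 4 of the 5 class II changes in PBS were negative (-0.24 to -0.13), while Brd2, Psmb9, Tap1, Psmb8 and Tap2 stayed at 1.44 or more. Psmb8 and Psmb9 are immunoproteasome subunits and Tap1 and Tap2 the peptide transporter, all serving class I. Gm15821 overlaps Tap2 on the opposite strand, so its reads cannot be told apart from those of Tap2 with certainty.

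**Figure D5:**
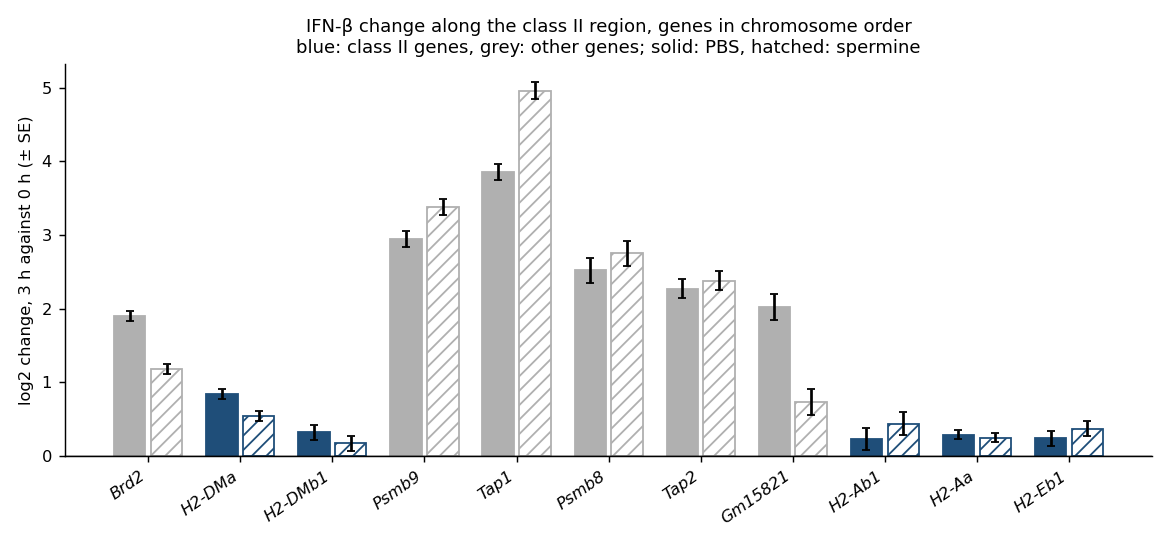
Log2 change ± SE from 0 h to 3 h of IFN-β (limma, n = 2 against 2) for the 11 tested genes of the class II region in chromosome order; blue bars are class II genes and grey bars others, solid in PBS and hatched with spermine. At the deposited scale the class II bars lie between 0.17 and 0.84 and those of Brd2, Psmb9, Tap1, Psmb8 and Tap2 between 1.18 and 4.96; rescaled to TPM, all class II changes in PBS but that of H2-DMa are negative.

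Genes of the class I side of antigen presentation were read beside the class II genes. Of 9 tested genes, 8 rose with IFN-β in PBS and 9 with spermine (on the TPM scale 8 and 7), with medians of 2.27 and 2.38, and 4 were lower with spermine at 0 h and 3 at 3 h, beside 24.6% and 19.7% of all genes rising and 19.2% and 20.6% falling. Nlrc5, the class I counterpart of CIITA, was at 4.27 and 3.07 FPKM in PBS at 0 h, 73.3 and 70.8 in PBS at 3 h, 2.40 and 2.65 in spermine at 0 h, and 42.1 and 43.4 in spermine at 3 h. The class I chains lay under the medians of this list. With IFN-β in PBS H2-K1 was at 0.75, and at 0.27 on the TPM scale and 0.00 after quantile normalization. H2-D1 was at 0.46 there (adjusted p = 0.0518, limma), and at -0.01 and -0.48 on those 2 scales. B2m, their partner chain, was at 0.91, 0.43 and 0.47. At 3 h of IFN-β Nlrc5 was at 72.1 FPKM and Ciita at 0.72 FPKM in PBS, as means of 2. Each was lower with spermine at both times, Nlrc5 by -0.39 (adjusted p = 0.0373) and -0.74 (adjusted p = 0.00328).

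The genes whose levels ran most like a member's over the 8 libraries were found among 2730 tested genes whose group means span at least 1 on the log2 scale. For Ciita these were Znrd1 (Pearson r = 0.994), Nat2 (0.993) and Slc37a3 (0.992), which were highest in PBS at 3 h and lowest in spermine at 0 h. For Cd74 they were Ier5 (0.990), Zfp36 (0.985) and Ube2s (0.984), highest in spermine at 3 h. Zfp36 went from 97.1 to 763 FPKM between the groups at the ends while Cd74 went from 367 to 548. For Ifi30 they were Tmed1 (0.963), Furin (0.955) and Irf8 (0.953). The libraries fall into 4 groups and the genes were picked for likeness, so these values are a description with no test.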

How the data were processed

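The authors deposited FPKM values of 54532 genes in 8 libraries, with gene length and position. The submitters' processing notes list, with no order, DESeq2 1.20.0, featureCounts 1.5.0-p3, HISAT2 2.0.5, fastp and CASAVA 1.8, and the builds GRCm38 and mm10. Poly(A) RNA was primed with random hexamers, per the labels' protocols, and the RNA source is given there as blood although the samples are labelled as macrophages. The product of FPKM and gene length came out as whole multiples of 1 step per library for 100% of values (tolerance 0.001), so reads were rebuilt. The deposited scale equals median-of-ratios size factors.

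Genes with at least 1 FPKM in at least 2 libraries (11421, with 7 of the 9 members) were fitted with limma 3.58.1 (R 4.3.3) on log2(FPKM + 1) over 4 group means, with an intensity trend. The 5 comparisons were IFN-β in PBS, IFN-β with spermine, spermine at 0 h, spermine at 3 h, and their interaction, the IFN-β response with spermine minus that in PBS. All p-values are two-sided and Benjamini-Hochberg adjusted across every gene in a comparison, and an adjusted p under 0.05 is a call. A fold change on this scale understates that of low genes. Ciita and H2-DMb2 lie under the filter and were tested with limma voom on rebuilt reads, a choice made after seeing the data. Intervals on reads are exact and cover counting error only. The limma fit on log2(FPKM + 1) was tested on simulated data, for the comparison of IFN-β in PBS only. The limma voom fit was not tested in that way. Tables used Python 3.11.15, numpy 2.4.6, pandas 2.3.3, scipy 1.17.1 and matplotlib 3.10.9.

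The members and lists were chosen with earlier results of these data known. The rule for named genes takes all 9 members and 3 genes of most like pattern for Ciita, Cd74 and Ifi30. It also takes the members of fixed lists (other class II chains, promoter complex, upstream genes, repressors, coactivators, proteases with an inhibitor, surface turnover and class I). Marker lists of 8 cell types were read beside them. Sums over the lists not given elsewhere were at most 6.41 FPKM for B cell, 4.83 for T cell, 0.102 for NK cell, 9.95 for neutrophil, 0.734 for fibroblast and 0.0727 for erythroid genes. Alternatives were another pseudocount, other filters, TPM and quantile scaling, no trend, only the groups compared, limma voom, a replicate block and leaving out each library. Some genes of these lists are counted in them and are not reported here by name.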

Additional observations from a re-analysis of the deposited data

How the results depend on the processing

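With 2 libraries a group, calls rest on few residual degrees of freedom (4), and the number of members that rose moved with the scale. For IFN-β in PBS (4 rises) there were 2 with no filter, 2 with no trend, 1 on the TPM scale (and 3 falls) and 1 after quantile normalization (and 5 falls). For IFN-β with spermine (5 rises) there were 3 with no filter, 0 on the TPM scale and 1 after quantile normalization (and 1 fall). For spermine at 0 h (3 rises) there were 0 on the TPM scale and 1 after quantile normalization, each with 1 fall, and for spermine at 3 h (3 rises) 0 under both. Leaving out each library in turn gave 1 to 3, 1 to 6, 1 to 3 and 0 to 4 rises in these comparisons, and 0 calls in the difference of the responses; where it leaves an arm with 1 library, that library is assumed to vary like the other groups. The cause of these shifts was not tested.

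Same-numbered libraries were not shown to be pairs, since their deviations correlated between -0.126 and 0.371 over the 6 pairs of groups. With the replicate block the rises numbered 5, 6, 3 and 4, and H2-Ab1 passed with IFN-β and spermine (adjusted p = 0.0241) and for spermine at 3 h (adjusted p = 0.0311). With the numbers crossed for spermine at 3 h, an alternative chosen after seeing the data, they numbered 7, 6, 5 and 4.

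Signs turned as follows in log2 change. With IFN-β in PBS, TPM and quantile values were -0.18 and -0.35 for H2-Aa, -0.24 and -0.41 for H2-Ab1, -0.23 and -0.40 for H2-Eb1, -0.24 and -0.57 for Cd74, and -0.29 and -0.43 for Ifi30, with a TPM value of -0.13 for H2-DMb1. With IFN-β and spermine they were -0.08 and -0.19 for H2-Aa, -0.04 and -0.29 for Cd74, and -0.04 and -0.10 for Ifi30, with -0.15 for H2-DMb1 (TPM), and -0.05 for H2-Ab1 and -0.10 for H2-Eb1 (quantile). For spermine at 0 h they were -0.14 and -0.12 for H2-Ab1, -0.09 and -0.07 for H2-Eb1, -0.06 and -0.22 for Cd74, and -0.29 and -0.10 for H2-DMb1, with -0.03 for H2-Aa (TPM). For spermine at 3 h they were -0.11 and -0.01 for H2-DMa, and H2-DMb1 ran from -0.25 to 0.04 when libraries were left out (0.04 without replicate 1 of spermine at 3 h). In the difference of the responses H2-Aa was at 0.10 (TPM), 0.15 (quantile) and 0.01 (limma voom), Ciita at -0.24 with no filter, and H2-DMb2 at 0.03 with TMM, 0.18 at library totals and -0.30 to 0.30 when libraries were left out, above 0 without replicate 1 of PBS at 0 h (0.20), replicate 2 of spermine at 0 h (0.30) or replicate 1 of spermine at 3 h (0.13). Over all alternatives, 512 of 623 values of the 7 members of the limma fit kept direction and side of the threshold, and 103 of 110 of Ciita and H2-DMb2 did.

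Ciita rests on 3 to 106 reads and H2-DMb2 on 4 to 15 reads a library. The size of difference detectable with so few reads was not tested.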

Other observations

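Several genes on the marker lists had higher means at 3 h of IFN-β than at 0 h while the genes that define their cell types stayed near 0. Lck, a kinase best known from T cells, had group means of 0.0796 FPKM in PBS at 0 h, 4.31 in PBS at 3 h, 0.0797 in spermine at 0 h and 1.16 in spermine at 3 h, with Cd3e, Cd3d and Cd3g at 0 throughout. Xcr1, a chemokine receptor best known from dendritic cells, had means of 0.103, 3.66, 1.08 and 5.97 FPKM in the same order of groups. Clec10a, a lectin of macrophages and dendritic cells, had means of 1.58, 6.88, 6.66 and 10.3 FPKM, and Flt3, Zbtb46 and Cd209a stayed at or below 0.104 FPKM. These values were read after the lists were set beside the class II genes and were not tested.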
